A study of Saccharomyces cerevisiae with 24 samples.

Results

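Wild type budding yeast, Saccharomyces cerevisiae of strain BY4741, was profiled by RNA-seq after rapamycin and without treatment, and the 2 groups were compared across all genes. The response described here rests on 4 libraries, 2 with rapamycin and 2 untreated, of the 8 RNA-seq libraries and the 24 samples of the series. They were chosen by the label wild type with the treatment rapamycin or none. The other 4 RNA-seq libraries come from an rph1 deletion of the same strain with and without rapamycin, and they entered the fit to share 1 estimate of the spread. The remaining samples are chromatin immunoprecipitations and their inputs and were not used here. Neither dose nor length of treatment is on the labels, and the names of the tables carry 0 h for untreated and 2 h for rapamycin. Whether the replicates came from separate cultures is not on the labels either, so the p-values cover the scatter among these libraries, which may be technical.

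Rapamycin binds the protein Fpr1, and the pair inhibits TORC1, the kinase complex that couples growth to nutrients. TORC1 signals through the kinase Sch9 and through phosphatases bound by Tap42. Loss of its activity is known for shutting down ribosome production, for opening the use of poor nitrogen sources, and for a halt in growth with features of starvation. Ribosomal protein genes, ribosome assembly, translation factors and the known nitrogen-controlled genes were set aside here, and the functions outside them are described.

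The libraries held 20630991 and 18937478 counts with rapamycin, against 18037199 and 24769193 untreated. Spearman correlations across genes between replicates were 0.992 with rapamycin and 0.9854 untreated, where genes are not independent replicates. BY4741 is a MATa strain deleted for LEU2, URA3 and MET17, and these 3 genes had 0 counts in all 4 libraries. STE2, the receptor that a cells use, had 13395 and 16508 counts with rapamycin, against 9479 and 21944 untreated, while STE3, the receptor of alpha cells, had 95 and 77 against 39 and 58. Log2 fold changes are edgeR estimates of rapamycin over untreated with their standard error (SE, n = 2 libraries per group). Levels are CPM, counts divided by the scaled library size and set to a common total, which do not allow for gene length. A gene is said to rise or fall where its quasi-likelihood p-value, adjusted by Benjamini-Hochberg over 6169 tested genes, lay under 0.05. By this rule 2145 genes rose (34.8% of those tested) and 2092 fell (33.9%), 68.7% in either direction. Of these, 919 (14.9%) rose and 898 (14.6%) fell by more than 2-fold, and the median of all genes was 0.02. A list is read against these shares, and one near them does not stand out. Of all calls 50.6% were increases; scaling by library totals alone moved the median by 0.335 and gave 3112 increases and 1335 decreases (70% increases). Because libraries are scaled, a rise or fall of all RNA in a cell cannot be seen, and fewer cells of one kind in a culture cannot be told apart from less RNA per cell.

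The 12 largest increases were taken among genes left after ribosomal, translation and nitrogen genes, and a further set of genes already known to change in these data, were set aside, so larger increases exist outside them. The choice required that the groups did not overlap. DPI8 (YJL133C-A; sacCer3, chromosome X, 159623 to 159847) had 1420 and 1205 CPM with rapamycin, against 27.1 and 11.3 CPM untreated. This 69.1-fold change, 6.11 ± 0.39 on the log2 scale, was the largest of the 12. AMD2 (YDR242W; chromosome IV, 946807 to 948456), a putative amidase, had 1268 and 1411 CPM against 32.8 and 33.3 CPM, a rise of 5.34 ± 0.12. TMT1, which methylates trans-aconitate, had 762 and 770 CPM against 25.9 and 23.8 CPM, a rise of 4.95 ± 0.11. In both genes the libraries of a group lay close together and the groups far apart. PDH1, a mitochondrial dehydratase of propionate breakdown, had 335 and 384 CPM with rapamycin, against 11.0 and 10.1 CPM untreated, and rose by 5.10 ± 0.12. GPG1, described as a partner of the glucose-sensing receptor Gpr1 and its G alpha protein, rose by 5.34 ± 0.27. PIR3, a cell wall protein bound to glucan, had 434 and 373 CPM against 17.6 and 12.05 CPM and rose by 4.77 ± 0.25. RTC2, a vacuolar membrane transporter of cationic amino acids, rose by 4.98 ± 0.29, ARO5 by 4.76 ± 0.19 and the uncharacterised YPR078C by 4.63 ± 0.21.

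The other members of the 12 are stress genes whose untreated libraries were unlike each other. HSP26, a small heat shock protein, had 641 and 540 CPM with rapamycin, against 26.0 and 6.99 CPM untreated, a rise of 5.18 ± 0.54. DDR2, induced by many stresses, had 425 and 261 CPM against 23.2 and 4.14 CPM, and SPG4, a gene of stationary phase survival, had 115 and 59.1 CPM against 5.52 and 1.15 CPM. In all 3, untreated replicate 1 lay above untreated replicate 2, and both rapamycin libraries lay far above either. The log2 rise of HSP26 was 6.40 without untreated replicate 1 and 4.50 without untreated replicate 2. That of DDR2 (4.69 ± 0.74) was 6.37 and 3.89, and that of SPG4 (4.81 ± 0.56) was 6.24 and 3.98. Leaving out untreated replicate 1 also moved RTC2 to 5.57 and DPI8 to 6.86. The part that the difference between the untreated libraries plays was not tested.

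**Figure D1:**
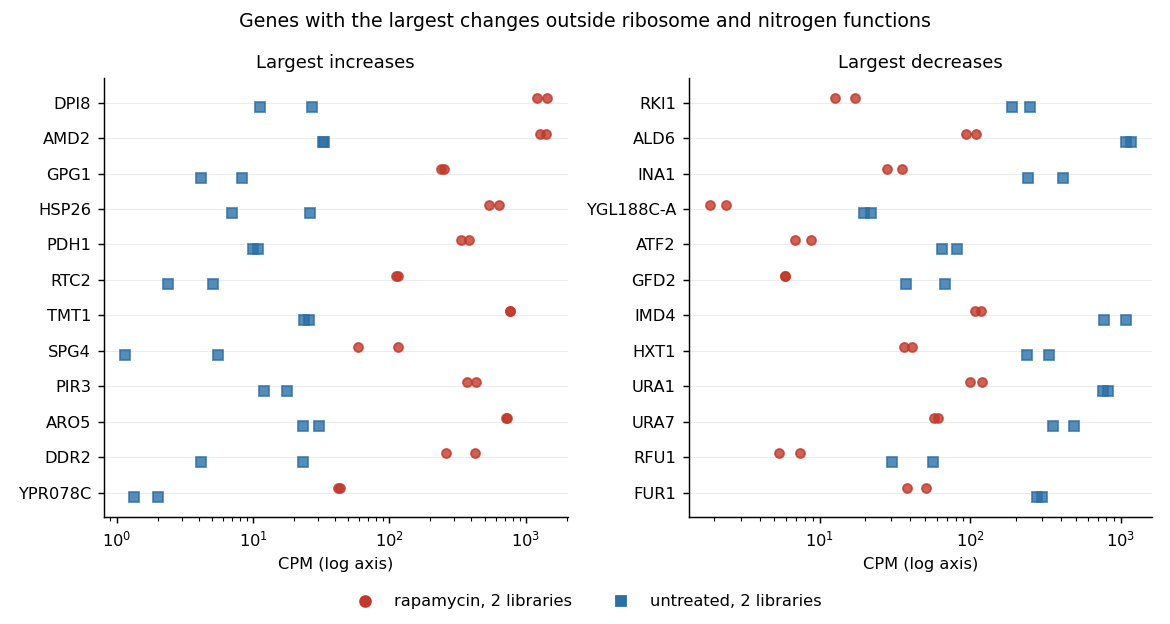
CPM of each wild type library (log axis) for the 12 largest increases and the 12 largest decreases among the genes kept; circles are the rapamycin libraries and squares the untreated ones. Genes were chosen so that the 2 groups do not overlap; the untreated libraries of HSP26, SPG4 and DDR2 lie apart from each other.

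The 12 largest decreases, chosen the same way, included genes of nucleotide, pentose and acetate metabolism. RKI1 (YOR095C; chromosome XV, 503552 to 504328), the isomerase that makes ribose 5-phosphate, had 17.1 and 12.7 CPM with rapamycin, against 190 and 248 CPM untreated. It fell 14.7-fold, by -3.87 ± 0.18. ALD6, the cytosolic aldehyde dehydrogenase that makes acetate, had 109 and 93.7 CPM against 1170 and 1073 CPM and fell 11.1-fold (-3.47 ± 0.23). A further 4 genes make or salvage nucleotides: IMD4, an IMP dehydrogenase (-3.04 ± 0.18), URA1, dihydroorotate dehydrogenase (-2.85 ± 0.14), URA7, a CTP synthase (-2.82 ± 0.18), and FUR1, uracil phosphoribosyltransferase (-2.68 ± 0.15). URA1 had 120 and 99.9 CPM with rapamycin, against 764 and 820 CPM untreated. ATF2, which acetylates alcohols and sterols, fell by -3.23 ± 0.18, and HXT1, a low-affinity glucose transporter, by -2.88 ± 0.20. RFU1, an inhibitor of the ubiquitin protease Doa4, fell by -2.77 ± 0.38. The others were INA1 (-3.37 ± 0.34), GFD2 (-3.16 ± 0.33) and YGL188C-A (-3.29 ± 0.17). IMD4 holds the snoRNA gene SNR54 in its span, with 86 shared bases, and IMD4 and HXT1 have close relatives with which short reads can be shared.

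To cover functions beyond ribosome and nitrogen genes, 60 lists with 1935 distinct tested genes were described by their counts and medians. In 30 lists more members fell than rose, and in 30 more rose than fell.

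**Figure D2:**
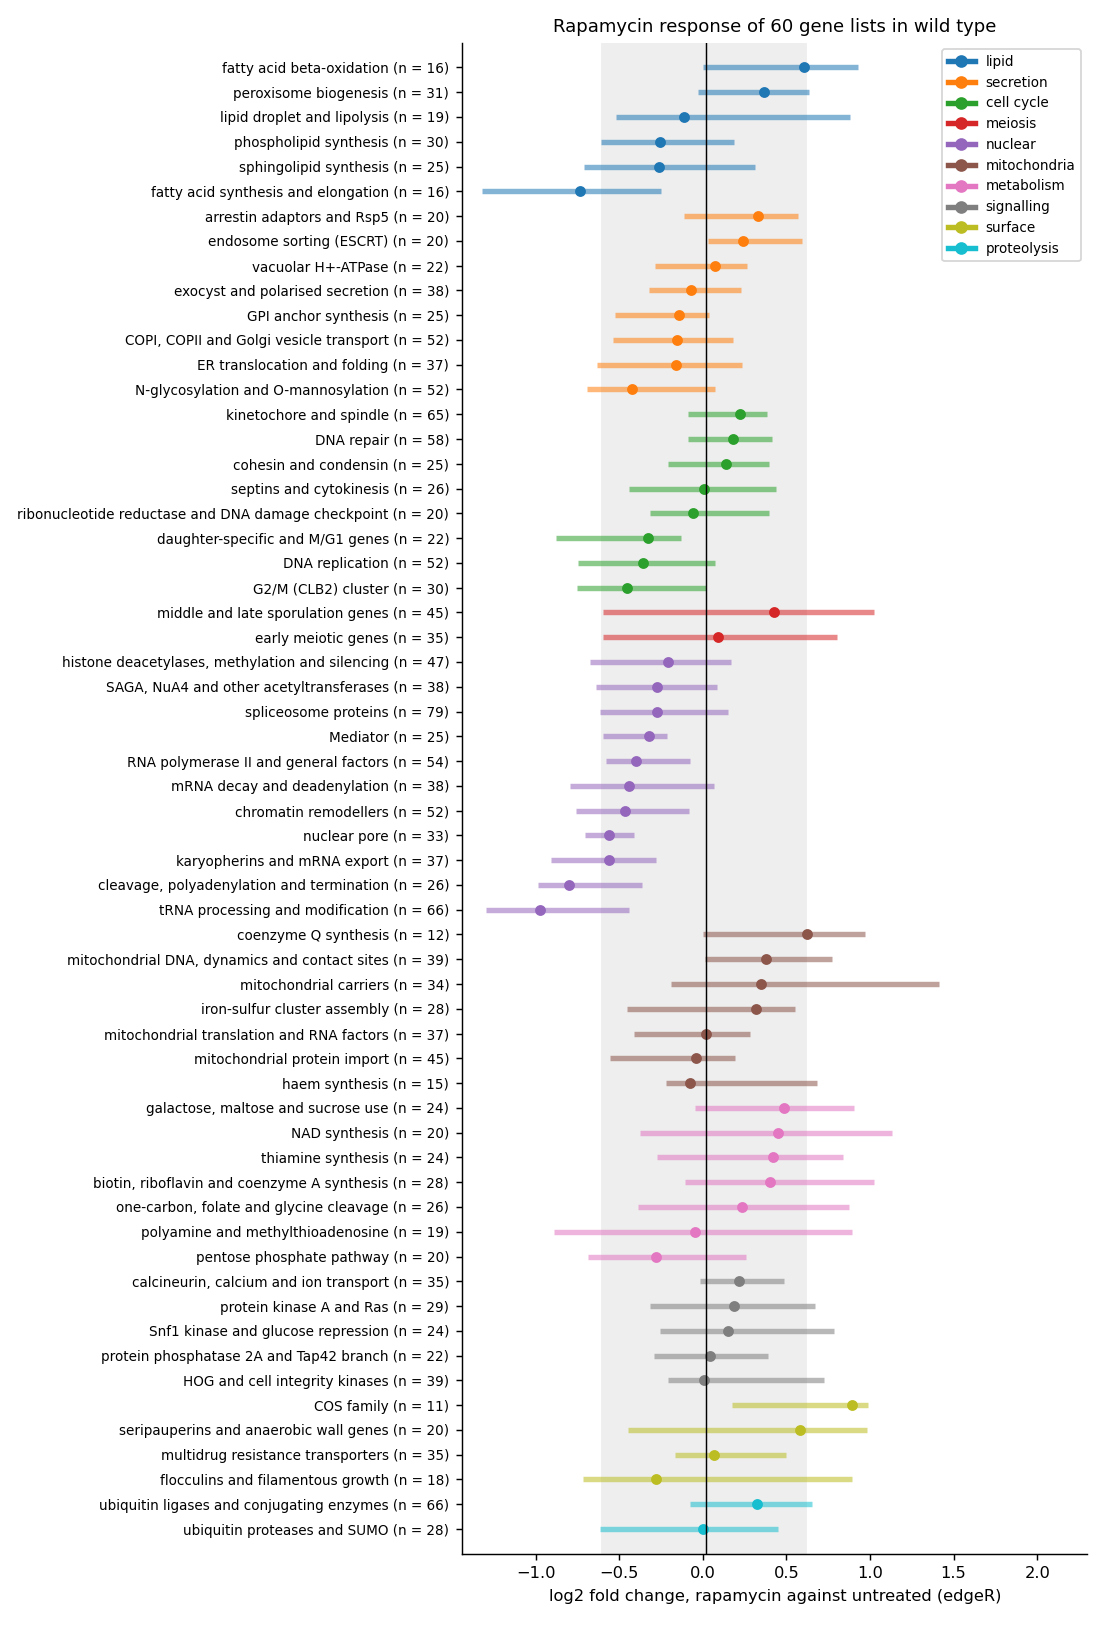
Median (point) and quartiles (bar) of the log2 fold change, rapamycin over untreated, for the tested members of 60 lists, coloured by theme; the black line and grey band give the median and quartiles of all 6169 genes. The 11 nuclear lists all lie left of the line, with tRNA processing and modification farthest out at -0.97.

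The enzymes that process and modify tRNA fell as a near-complete set. Of 66 genes, 53 fell, 32 of them by more than 2-fold, 3 rose, and the median was -0.97 against 0.02 for all genes. NCL1 (YBL024W; chromosome II, 172534 to 174588), which methylates cytosine in tRNA, had 57.6 and 62.6 CPM with rapamycin, against 301 and 364 CPM untreated, a fall of -2.47 ± 0.12. TRM8, the catalytic subunit of the tRNA guanine-7 methyltransferase, had 37.0 and 35.5 CPM against 145 and 155 CPM (-2.05 ± 0.10). Its partner subunit TRM82 fell alongside, with 61.1 and 48.9 CPM against 221 and 277 CPM (-2.18 ± 0.14). RTT10, needed for ribose methylation of tRNA, fell by -2.33 ± 0.20, and PUS4, a pseudouridine synthase, by -1.72 ± 0.09. TRM82 and RTT10 were chosen after their values were seen. The exceptions included GON7, a small subunit of the KEOPS complex that makes threonylcarbamoyl adenosine (0.87 ± 0.08), and UBA4, which activates the ubiquitin-like Urm1 for tRNA thiolation (0.50 ± 0.08). The Elongator subunits ELP3 and ELP2, which modify the tRNA wobble uridine and stand on the acetyltransferase list, fell by -1.64 ± 0.10 and -1.59 ± 0.12.

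Most genes of the nuclear pore fell, and most by less than 2-fold. Of 33 nuclear pore genes 30 fell and 1 rose, 4 fell by more than 2-fold, and the median was -0.56. With library totals 15 fell and 2 rose. NUP60, of the nuclear basket, had 82.1 and 81.4 CPM with rapamycin, against 211 and 201 CPM untreated (-1.33 ± 0.09). GLE2 fell by -1.16 ± 0.10 and NUP145 by -1.14 ± 0.12, while POM33, a membrane protein of the pore, rose by 0.65 ± 0.12. Of 37 karyopherins and mRNA export genes, 26 fell (17 with library totals), 9 by more than 2-fold, 6 rose, and the median was -0.56. Their changes spread from -1.59 to 3.35. The import receptors PSE1 (-1.53 ± 0.11), NMD5 (-1.46 ± 0.10), KAP122 (-1.59 ± 0.14) and KAP123 (-1.48 ± 0.12) fell, as did LOS1, the export receptor of tRNA (-1.50 ± 0.12), and MEX67, the main mRNA export receptor (-1.18 ± 0.09). KAP122, KAP123 and LOS1 were chosen after their values were seen. A single gene went far the other way. GSP2, the minor form of the Ran GTPase that drives nuclear transport, had 261 and 265 CPM with rapamycin, against 32.2 and 19.7 CPM untreated, a 10.2-fold rise (3.35 ± 0.21).

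Genes for making the 3' ends of mRNA fell too. Of 26 genes of cleavage, polyadenylation and termination, 21 fell, 7 by more than 2-fold, and the median was -0.80. HRP1, a cleavage factor that binds the precursor RNA, had 133 and 151 CPM with rapamycin, against 423 and 513 CPM untreated (-1.72 ± 0.15). PCF11, of cleavage factor IA, fell by -1.39 ± 0.10, YSH1, the endonuclease, by -1.01 ± 0.09, and NRD1, of the termination complex for short transcripts and chosen after its values were seen, by -1.28 ± 0.14. The 1 gene called higher, YTH1, had 0.43 ± 0.12 and lost its call without rapamycin replicate 1 (edgeR adjusted p = 0.0711) and without untreated replicate 2 (0.0822).

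**Figure D3:**
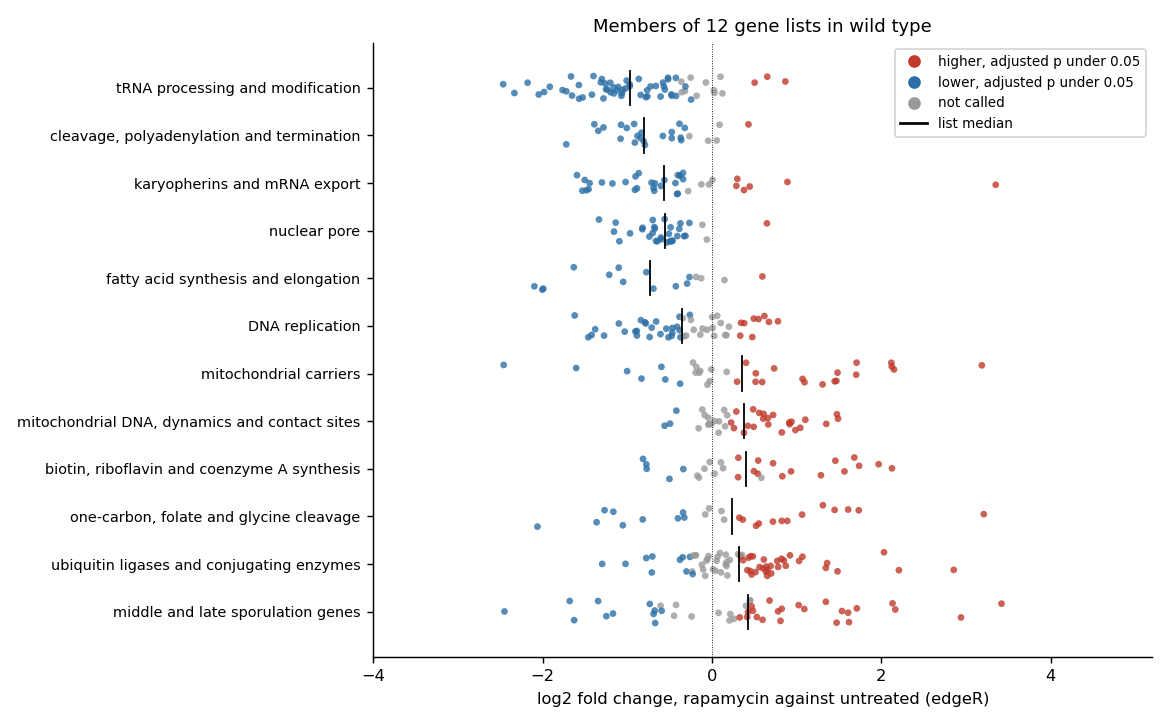
Log2 fold change, rapamycin over untreated, of every tested member of 12 lists; red points rose, blue points fell, grey points were not called, and black bars are list medians. The tRNA list reaches down to -2.47, and single genes such as GSP2 among the karyopherins (3.35) lie far from their list.

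The transcription and chromatin machinery shifted down by smaller amounts. Of 54 genes of RNA polymerase II and its general factors 32 fell and 4 rose (median -0.40). TAF5, a subunit shared by TFIID and SAGA, fell by -1.17 ± 0.09 and the polymerase subunits RPB3 and RPB9 by -0.95 ± 0.08 and -1.11 ± 0.10, while TAF13, of TFIID, rose by 1.07 ± 0.09. Of 25 Mediator genes 15 fell and 3 rose (median -0.32), and none passed 2-fold. Of 52 chromatin remodeller genes 33 fell and 4 rose (median -0.47), with RVB2, a helicase of INO80 and SWR1, at -1.13 ± 0.09 and RSC3 at -1.04 ± 0.09. Among 38 acetyltransferase genes 16 fell and 6 rose (median -0.27). Among 47 genes of deacetylation, histone methylation and silencing 21 fell and 7 rose (median -0.21). In that list SIR2, the silencing deacetylase, had 21.9 and 20.9 CPM with rapamycin, against 49.2 and 55.7 CPM untreated (-1.30 ± 0.10), and SWD2, of the Set1 complex, fell by -1.34 ± 0.12. HOS4, of the Set3 complex, rose by 0.88 ± 0.11. With library totals the calls were 14 higher and 13 lower for polymerase II, 5 and 5 for Mediator, 13 and 8 for acetyltransferases and 17 and 10 for silencing, so the balance of these 4 lists depends on the scaling; for remodellers it stayed with decreases, at 14 higher and 18 lower.

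In the lists of splicing and of mRNA decay more genes fell than rose, and the balance of splicing depended on the scaling. Of 79 tested spliceosome genes 39 fell and 11 rose (median -0.27), but with library totals 19 fell and 29 rose, and without rapamycin replicate 1 or untreated replicate 2 the number that rose was 6. PRP43, the helicase that dismantles spliceosomes and also acts in ribosome assembly, had 120 and 122 CPM with rapamycin, against 399 and 492 CPM untreated (-1.88 ± 0.13). PRP19 fell by -0.998 ± 0.08 and PRP11 by -1.08 ± 0.09, while DIB1 and LEA1, small proteins of the U4/U6.U5 and U2 particles, rose by 1.04 ± 0.08 and 1.05 ± 0.12. Of 38 genes of mRNA decay and deadenylation 22 fell and 7 rose (median -0.44), and with library totals 15 fell and 12 rose. NOT3, of the Ccr4-Not deadenylase complex, fell by -1.37 ± 0.13, and EDC2, an activator of decapping, rose by 1.41 ± 0.13.

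More genes of DNA replication fell than rose, while few genes of DNA repair fell. Of 52 replication genes 27 fell (51.9%, against 33.9% of all genes) and 9 rose (median -0.36). With library totals 15 fell and 16 rose. The share that fell by more than 2-fold, 7 genes or 13.5%, is near the 14.6% of all genes. ORC2, of the origin recognition complex, had 33.9 and 30.03 CPM with rapamycin, against 91.0 and 85.2 CPM untreated (-1.46 ± 0.09). The clamp loader subunit RFC1 fell by -1.38 ± 0.11. The MCM helicase subunits below, chosen after their values were seen, fell by -1.62 ± 0.17 (MCM6), -1.42 ± 0.21 (MCM3), -1.27 ± 0.21 (MCM2) and -1.10 ± 0.23 (MCM7). RFA1, the large subunit of the single-strand binding protein, rose by 0.55 ± 0.09. Of 58 repair genes 22 rose, a share close to that of all genes, 4 by more than 2-fold, and 9 fell (median 0.18). The 4 were MGT1, the alkyl-guanine transferase (1.76 ± 0.15), MAG1, the alkyl-adenine glycosylase (1.54 ± 0.14), PHR1, photolyase and chosen after its values were seen (1.45 ± 0.23), and RAD28 (1.30 ± 0.12). MGT1 had 60.1 and 54.2 CPM with rapamycin, against 15.1 and 18.6 CPM untreated. RAD3, a helicase of excision repair that is also part of TFIIH, fell by -1.20 ± 0.11.

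The lists of cell division differed from each other. In the G2/M cluster that follows the cyclin CLB2, 15 of 30 genes fell and 3 rose (median -0.45), among them HOF1, of the cytokinetic ring (-1.27 ± 0.15), and the transcription factors MCM1 (-0.97 ± 0.11) and FKH2 (-0.76 ± 0.10). With library totals 6 fell and 8 rose. Of 22 daughter-specific and M/G1 genes 10 fell and 2 rose (median -0.33): EGT2 and PIR1, cell wall proteins of early G1, fell by -1.45 ± 0.13 and -1.57 ± 0.14. The 2 that rose were RME1, a repressor of meiosis (1.54 ± 0.10), and PST1, a wall protein induced by wall damage (1.93 ± 0.13). PST1 had 836 and 897 CPM with rapamycin, against 233 and 222 CPM untreated. Kinetochore and spindle genes rose more often than they fell, 23 against 9 of 65 (median 0.22), but only 2 rose by more than 2-fold. CSE4, the centromeric histone H3, rose by 1.03 ± 0.12, DAD4, of the ring that grips microtubules and chosen after its values were seen, by 1.235 ± 0.17, and SGO1, shugoshin, fell by -0.93 ± 0.14. The share that rose is close to the 34.8% of all genes, while the share that fell, 9 of 65, is below the 33.9% of all genes. Of 25 cohesin and condensin genes 9 rose, a share of 36% that is close to that of all genes, and 4 fell, with NSE5 lowest at -1.33 ± 0.13. Of 26 septin and cytokinesis genes 8 rose and 10 fell (6 without rapamycin replicate 1). Of 20 genes of nucleotide reduction and the damage checkpoint 7 rose and 5 fell, with HUG1 highest at 1.57 ± 0.25; 3 rose without rapamycin replicate 1 or untreated replicate 2, when 2 and 3 fell. The balance of the last 2 lists turned under several of the alternatives tried.

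Sporulation genes changed in both directions, many from low levels, in these haploid cells. Haploid MATa cells do not enter meiosis, and the regulators of the programme are normally off. Of 45 tested genes of middle and late sporulation 23 rose, 12 by more than 2-fold, and 11 fell, 6 by more than 2-fold (median 0.42). Genes this low can pass the filter on low counts through the rapamycin libraries alone, so these counts are descriptions only. Without rapamycin replicate 1 the number that fell was 7. SHC1, a partner of chitin synthase in the spore wall, had 52.0 and 58.2 CPM with rapamycin, against 5.58 and 4.78 CPM untreated (3.42 ± 0.13). RRT8, of the outer spore wall, had 137 and 134 CPM against 34.4 and 26.4 CPM (2.16 ± 0.13). LDS2 and OSW2, other spore wall genes chosen after their values were seen, rose by 2.94 ± 0.28 and 2.13 ± 0.23, and SPO21, of the meiotic spindle pole, rose by 1.71 ± 0.15. DTR1, a dityrosine transporter of the spore wall, fell by -1.68 ± 0.18 and SPR6 by -1.63 ± 0.15. Of 35 early meiotic genes 13 rose and 11 fell (7 without rapamycin replicate 2). These shares, 37.1% and 31.4%, are close to the 34.8% and 33.9% of all genes. Low genes of this list can also pass the filter through the rapamycin libraries alone. SAE3, a helper of the meiotic recombinase, had 5.07 and 5.15 CPM with rapamycin, against 0.321 and 0.460 CPM untreated (3.65 ± 0.25). REC8, the meiotic cohesin, rose by 1.88 ± 0.22 to no more than 11.6 CPM, and SPO1 by 1.45 ± 0.12. UME6, the repressor of early meiotic genes in growing cells, fell by -1.19 ± 0.08, with 33.4 and 34.5 CPM against 78.003 and 76.8 CPM.

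Carriers and channels of the mitochondrial membranes rose by large factors, with exceptions. Of 34 genes 18 rose, 12 of them by more than 2-fold, and 7 fell (median 0.35). ODC1, which exports oxoacids, had 130 and 133 CPM with rapamycin, against 32.6 and 28.1 CPM untreated (2.12 ± 0.12). ORT1, the ornithine carrier, rose equally (2.12 ± 0.10), and YMC1 by 1.45 ± 0.08. MPC3, a subunit of the pyruvate carrier, had 82.8 and 63.9 CPM against 12.1 and 4.51 CPM (3.19 ± 0.43, or 4.02 without untreated replicate 1). POR1, the outer membrane porin, was the most abundant of those named, at 3457 and 3215 CPM against 854 and 650 CPM (2.15 ± 0.17). MPC3 and POR1 were chosen after their values were seen. AAC3, an ADP/ATP carrier used without oxygen, fell by -2.46 ± 0.16 and OAC1, the oxaloacetate carrier, by -1.60 ± 0.18. AAC3 stood at 4.18 and 4.96 CPM with rapamycin, against 27.5 and 22.9 CPM untreated.

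Among genes that shape mitochondria more rose than fell as well. Of 39 genes of mitochondrial DNA upkeep, dynamics and contact sites 23 rose (59%, against 34.8% of all genes) and 3 fell (median 0.38). The share that rose by more than 2-fold, 5 genes or 12.8%, is near the 14.9% of all genes. MIC10 and MIC12, of the complex that forms crista junctions, rose by 1.49 ± 0.11 and 1.47 ± 0.13, and MDM34, of the tether to the endoplasmic reticulum, by 1.35 ± 0.10. PHB2, a prohibitin chosen after its values were seen, had 386 and 367 CPM with rapamycin, against 184 and 167 CPM untreated (1.10 ± 0.10). Coenzyme Q synthesis rose in 7 of 12 genes (median 0.62), such as COQ6 (1.02 ± 0.10), while COQ2 fell by -1.25 ± 0.17. Iron-sulfur cluster assembly rose in 16 of 28 genes and fell in 8 (median 0.32), with CIA2 at 1.28 ± 0.09 and TAH18 at -1.14 ± 0.09. Protein import did not follow: 10 of 45 genes rose and 16 fell (24 and 7 with library totals), with TIM23, the inner membrane channel, at -1.47 ± 0.12 and SOM1, a small subunit of the inner membrane peptidase, at 3.07 ± 0.18. SOM1 had 27.0 and 25.4 CPM against 3.66 and 2.67 CPM. Of 37 factors of mitochondrial translation and RNA 10 rose and 13 fell, a balance that turned with library totals. Without rapamycin replicate 1 the numbers were 6 and 5, and without untreated replicate 2 the number that fell was 8. In haem metabolism 5 of 15 genes rose, a share of 33.3% that is close to that of all genes, and 3 fell. HMX1, which breaks haem down, had 79.6 and 71.9 CPM with rapamycin, against 7.89 and 10.1 CPM untreated (3.06 ± 0.13), while the synthetic enzyme HEM12 fell by -0.97 ± 0.10.

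Fatty acid synthesis fell and fatty acid breakdown rose. Of 16 genes of synthesis and elongation 12 fell, 7 by more than 2-fold, and 1 rose (median -0.73). ELO2 and ELO3, the elongases of very long chains, had falls of -2.004 ± 0.15 and -1.63 ± 0.09, and ELO3 stood at 182 and 187 CPM with rapamycin, against 544 and 600 CPM untreated. ACC1, the acetyl-CoA carboxylase that commits carbon to the pathway, fell by -1.21 ± 0.10 and FAS1, of the synthase, by -1.10 ± 0.11; both were chosen after their values were seen. Of 16 genes of beta-oxidation 10 rose and 3 fell (median 0.61). PXA2, of the peroxisomal importer of fatty acids, had 55.7 and 59.1 CPM against 21.0 and 20.8 CPM (1.46 ± 0.10), and PIP2, a transcription factor of oleate use, rose by 1.13 ± 0.09. Peroxisome biogenesis rose in 18 of 31 genes and fell in 4 (median 0.37), with PEX11, which divides peroxisomes, at 1.28 ± 0.11 and PEX31 at -1.66 ± 0.10.

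In the phospholipid and sphingolipid lists more genes fell than rose, a balance that turned with library totals. The largest change in these lists was the rise of OPI3. OPI3 (YJR073C; chromosome X, 572315 to 572935), which carries out the last methylations of phosphatidylcholine synthesis, had 625 and 632 CPM with rapamycin, against 68.3 and 65.0 CPM untreated (3.24 ± 0.10). CHO2, which makes the first methylation, went the other way, at 192 and 187 CPM against 341 and 375 CPM (-0.92 ± 0.10). PSD1, which makes the phosphatidylethanolamine they use, fell by -1.27 ± 0.11. In the whole phospholipid list 7 of 30 genes rose and 13 fell (13 and 6 with library totals). Of 25 sphingolipid genes 7 rose and 13 fell (11 and 7 with library totals; 4 rose without rapamycin replicate 1 and 8 fell without untreated replicate 2), with LAG1, a ceramide synthase subunit, at -0.997 ± 0.09, ORM1, a brake on the pathway, at -0.95 ± 0.09 and SUR1, a mannosyltransferase, at 1.30 ± 0.26. Lipid droplet genes were balanced, with 8 of 19 higher and 9 lower (9 and 4 with library totals). Which direction had more calls did not hold under several of the alternatives tried. PLN1, a droplet coat protein, had 1.37 ± 0.10 and TGL2, a lipase, had 1.53 ± 0.13.

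In the lists of cofactor synthesis more genes rose than fell. Of 28 genes for biotin, riboflavin and coenzyme A, 15 rose, 7 by more than 2-fold, and 5 fell, none of them by 2-fold (median 0.40). RIB5, riboflavin synthase, had 469 and 500 CPM with rapamycin, against 114 and 108 CPM untreated (2.12 ± 0.09). CAB2, an enzyme of coenzyme A synthesis, had 277 and 269 CPM against 87.3 and 83.2 CPM (1.68 ± 0.09), and FMS1, the polyamine oxidase that feeds its precursor beta-alanine, rose by 1.74 ± 0.12. The biotin genes BIO5, BIO3 and BIO4, chosen after their values were seen, rose by 1.97 ± 0.17, 1.56 ± 0.15 and 1.46 ± 0.15, and BPL1, which attaches biotin to its enzymes, fell by -0.78 ± 0.13. For NAD, 11 of 20 genes rose and 6 fell (median 0.45). BNA1, of the pathway from tryptophan, had 254 and 263 CPM against 52.9 and 46.3 CPM (2.38 ± 0.11), while the nicotinic acid importer TNA1 fell by -1.59 ± 0.09. Of 24 genes of thiamine synthesis 10 rose, 5 of them by more than 2-fold, and 5 fell, 2 by more than 2-fold, with a median of 0.42 and a lowest value of -4.13.

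The one-carbon list held large changes of both signs. In it 13 of 26 genes rose, 6 by more than 2-fold, and 9 fell, 5 by more than 2-fold. The glycine cleavage genes GCV1, GCV2 and GCV3 rose by 1.73 ± 0.17, 1.45 ± 0.21 and 1.61 ± 0.12. GCV3 had 405 and 469 CPM with rapamycin, against 133 and 154 CPM untreated. MIS1, the mitochondrial folate interconversion enzyme, had 115 and 106 CPM against 462 and 458 CPM (-2.06 ± 0.10). SHM2, the cytosolic serine hydroxymethyltransferase, fell by -1.27 ± 0.25, GLY1, which makes glycine from threonine, by -1.36 ± 0.11, and FOL1, of folate synthesis, by -1.05 ± 0.14. SER3, the first enzyme of serine synthesis, had 600 and 527 CPM against 51.2 and 70.5 CPM (3.21 ± 0.18); it shares 77 bases with the annotated regulatory transcript SRG1. GCV1, GCV2, SHM2 and FOL1 were chosen after their values were seen.

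The pentose phosphate list combined large changes of both signs. Of 20 genes 10 fell, RKI1 the most, and 4 rose, all by more than 2-fold (8 higher and 6 lower with library totals). PRS1, of the enzyme that makes phosphoribosyl pyrophosphate, had 204 and 200 CPM with rapamycin, against 597 and 712 CPM untreated (-1.70 ± 0.12), and TKL1, the main transketolase and chosen after its values were seen, fell by -1.03 ± 0.14. NQM1, a second transaldolase, had 153 and 122 CPM against 12.6 and 5.24 CPM (3.98 ± 0.36, or 4.71 without untreated replicate 1). RBK1, ribokinase, rose by 1.14 ± 0.11. Polyamine and methylthioadenosine genes were divided, with 7 of 19 higher and 9 lower: TPO2, a polyamine exporter, had 306 and 352 CPM against 34.3 and 31.0 CPM (3.33 ± 0.23), and OAZ1, the antizyme that restrains polyamine synthesis, rose by 1.52 ± 0.10. LIA1 and DYS1, which form hypusine on the translation factor eIF5A, fell by -2.45 ± 0.11 and -1.29 ± 0.09, and SPE4, spermine synthase, by -1.12 ± 0.09. Genes for galactose, maltose and sucrose rose in 12 of 24 cases and fell in 2, with the activator MAL33 at 2.23 ± 0.14.

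In 4 lists of the secretory pathway more genes fell than rose, and this balance depended on the scaling. Of 52 genes of glycosylation 30 fell (19 without rapamycin replicate 1) and 9 rose (median -0.43), of 37 genes of translocation and folding in the endoplasmic reticulum 17 fell and 6 rose (-0.16), of 52 genes of vesicle transport 24 fell and 8 rose (-0.15), and of 25 genes of GPI anchors 8 fell and 2 rose (-0.14). With library totals more members rose than fell in all 4 lists. The share of GPI anchor genes that fell, 32%, is close to the 33.9% of all genes, and none fell by more than 2-fold. The share that rose, 8%, is below the 34.8% of all genes. SEC53, which makes mannose 1-phosphate, had 386 and 357 CPM with rapamycin, against 781 and 836 CPM untreated (-1.12 ± 0.10), and PMT4, an O-mannosyltransferase, fell by -1.13 ± 0.11. SSH1, a translocon subunit, fell by -1.16 ± 0.10 and SRP68, of the signal recognition particle, by -1.14 ± 0.09. EMP46, a lectin-like cargo receptor, rose against its list by 2.21 ± 0.15. Of 38 genes of exocytosis 10 rose and 12 fell (20 and 3 with library totals). Of 22 genes of the vacuolar proton pump 7 rose and 6 fell (13 and 1 with library totals). The balance turned in both lists when rapamycin replicate 1 was left out. That of exocytosis also turned with library totals, and that of the proton pump under several other alternatives. Of 20 tested ESCRT genes, which sort cargo to the vacuole, 10 rose and 2 fell, but 6 rose without rapamycin replicate 1, with VPS60 at 1.14 ± 0.13 and SNF8 at 1.06 ± 0.10.

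More genes of ubiquitin ligases and their adaptors rose than fell. Of 66 ligase and conjugating enzyme genes 32 rose (48.5%, against 34.8% of all genes) and 10 fell, or 6 without rapamycin replicate 1 (median 0.32). The share that rose by more than 2-fold, 8 genes or 12.1%, is near the 14.9% of all genes. UBC5 (YDR059C; chromosome IV, 569234 to 569770), a conjugating enzyme for short-lived and abnormal proteins, had 138 and 128 CPM with rapamycin, against 18.3 and 18.4 CPM untreated (2.85 ± 0.09). UBC8, the conjugating enzyme of the GID ligase that degrades gluconeogenic enzymes, had 166 and 155 CPM against 40.8 and 29.0 CPM (2.21 ± 0.17). The GID subunits VID24 and GID8 rose by 2.03 ± 0.21 and 1.48 ± 0.15. Another subunit, FYV10, had 1.03 ± 0.28 and lost its call without rapamycin replicate 1 (edgeR adjusted p = 0.075); VID24 and FYV10 were chosen after their values were seen. SAN1, a nuclear quality control ligase, fell by -1.30 ± 0.16 and CDC20, an activator of the anaphase-promoting complex, by -1.02 ± 0.17. Of 20 arrestin adaptor genes 12 rose and 3 fell (median 0.33). UBI4, polyubiquitin, stood on that list with 1628 and 1658 CPM against 176 and 108 CPM (3.54 ± 0.24); its ubiquitin repeats are shared with ribosomal fusion genes, and how such reads were counted is not given in the sources used here. CSR2, an adaptor for sugar transporters, rose by 2.23 ± 0.19 and ART5 fell by -1.30 ± 0.19. Of 28 genes of ubiquitin proteases and SUMO 8 rose and 11 fell, a balance that turned with library totals and without rapamycin replicate 2, with UBP11 at 1.63 ± 0.11 and UBP8, of SAGA, at -1.37 ± 0.18.

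Signalling genes included some large increases. In the protein kinase A and Ras list 13 of 29 genes rose and 7 fell, or 4 without rapamycin replicate 1 (median 0.18). PDE1, which breaks down cAMP, had 552 and 453 CPM with rapamycin, against 84.9 and 59.0 CPM untreated (2.81 ± 0.19). GPR1, the glucose receptor upstream of cAMP, rose by 1.97 ± 0.17 and GPA2, its G alpha protein and chosen after its values were seen, by 1.56 ± 0.18, while RAS1 fell by -1.27 ± 0.13. For Snf1 and glucose repression 11 of 24 genes rose and 6 fell (median 0.15): SIP4, an activator of gluconeogenic genes, had 52.9 and 54.2 CPM against 4.49 and 2.58 CPM (3.96 ± 0.22), and CAT8 and ADR1 rose by 1.66 ± 0.21 and 1.69 ± 0.26. SNF1, the kinase itself, fell by -0.66 ± 0.12. Among 39 genes of the osmotic and cell integrity pathways 14 rose and 6 fell (10 without untreated replicate 1). The share that rose, 35.9%, is close to the 34.8% of all genes. KDX1, a kinase-like target of the integrity pathway, had 119 and 130 CPM against 16.7 and 14.6 CPM (2.996 ± 0.10), MTL1, a wall sensor, rose by 2.88 ± 0.23, and SLT2, the integrity MAP kinase chosen after its values were seen, by 1.71 ± 0.16. SHO1, an osmosensor, fell by -0.87 ± 0.08. Of 35 genes of calcium signalling and ion transport 15 rose and 8 fell (4 or 5 without either rapamycin library or untreated replicate 2), such as PMC1, the vacuolar calcium pump (1.43 ± 0.18), and CMD1, calmodulin (1.06 ± 0.13). Of 22 genes of the Tap42 phosphatase branch 8 rose, a share of 36.4% that is also close to that of all genes, and 4 fell. NPR1, a kinase downstream of TORC1, rose by 1.07 ± 0.19, and SIT4, a phosphatase bound by Tap42, fell by -0.70 ± 0.10.

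Surface genes gave mixed lists. Of 35 multidrug transporter genes 11 rose (7 without rapamycin replicate 2) and 7 fell, of 18 genes of flocculins and filamentous growth 7 rose and 8 fell (4 without rapamycin replicate 1 and 5 without untreated replicate 2), and the balance of both turned under at least 1 alternative. FLO9, a flocculin, rose by 1.40 ± 0.09 and PGU1, a secreted pectin-degrading enzyme, by 1.83 ± 0.10. In the seripauperin and anaerobic wall list 20 of 30 genes passed the filter on low counts. Since a gene can pass it through the rapamycin libraries alone, the counts of changed genes in this list are not used. TIR1, a wall mannoprotein of cells without oxygen, had 25.4 and 21.2 CPM with rapamycin, against 155 and 113 CPM untreated (-2.52 ± 0.19), while PAU5 had 6.36 and 6.24 CPM against 1.15 and 0.874 CPM (2.65 ± 0.20). Of 11 COS genes, a subtelomeric family, 7 rose and 1 fell (median 0.89), with COS4 at 1.98 ± 0.23 and COS10 at -0.97 ± 0.21. PAU and COS genes are near-identical within their families, so counts of single members are uncertain.

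Among tested genes near chromosome ends the share that rose was above that of all genes, a grouping made after the values were seen and given as a description. Distance was taken to the outermost position of any annotated gene on the chromosome. Of all 5753 protein-coding genes tested 35.7% rose and 33.9% fell. Within 10 kb of an end 41.7% of 96 genes rose and 7.29% fell. Between 10 and 20 kb 57.5% of 113 genes rose and 11.5% fell, and between 20 and 30 kb 54.5% of 134 genes rose and 14.9% fell. Beyond 200 kb the shares were 33.8% and 35.1% of 2959 genes. The median log2 fold change was 0.26, 0.62 and 0.44 in the 3 outer zones and 0.00 beyond 200 kb. Many genes there belong to families with near-identical copies, and genes with few counts could pass the filter through the rapamycin libraries alone. Among the 5261 protein-coding genes with a mean of 10 CPM or more over all 8 libraries, a limit chosen after seeing the data, 35.7% rose and 35.3% fell. The shares were then 47.2% and 13.9% of 36 genes within 10 kb, 55.6% and 15.3% of 72 genes between 10 and 20 kb, and 58.6% and 15.5% of 116 genes between 20 and 30 kb. That mean includes the rapamycin libraries, so a gene high only with rapamycin can still pass this limit. SNO4, 3.94 kb from an end, had 64 and 57 counts with rapamycin, against 10 and 3 untreated (2.96 ± 0.45); it stood at 4.28 without untreated replicate 1 and at 2.11 without untreated replicate 2. ERR3, an enolase-related gene 1.61 kb from an end, had 134 and 132 counts against 20 and 25 (2.34 ± 0.26). YPS6, a protease-like gene 6.07 kb from an end, had 1555 and 1630 counts against 185 and 183 (2.87 ± 0.19). These 3 were chosen after their values were seen.

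**Figure D4:**
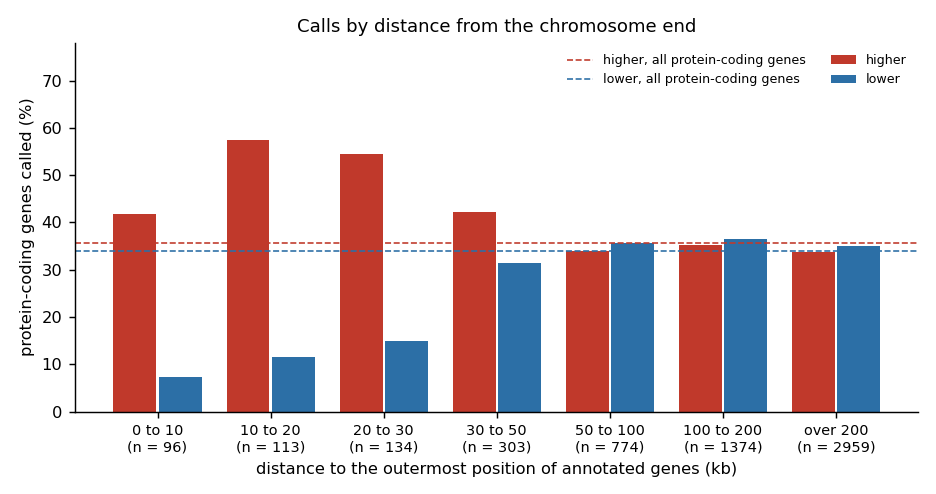
Percentage of tested protein-coding genes that rose (red) or fell (blue) with rapamycin, by distance to the outermost annotated position of the chromosome; dashed lines give the shares of all 5753 protein-coding genes. In the 3 zones within 30 kb the red bars reach 41.7% to 57.5% and the blue bars 7.29% to 14.9%, and beyond 50 kb both lie near the dashed lines.

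Some related genes with similar products changed in opposite directions. Of 119 tested pairs, 25 had 1 member that rose and 1 that fell, 24 had both higher, 19 both lower, 47 had 1 call and 4 had none. The pairs were listed from textbook knowledge and are not a complete set of duplicates. In 11 of the 25 both calls held under every alternative tried. The glucose kinase HXK1 had 1480 and 1262 CPM with rapamycin, against 281 and 49.4 CPM untreated, and its partner HXK2 had 1256 and 1341 CPM against 2614 and 2036 CPM. Their log2 fold changes were 3.06 ± 0.68 and -0.84 ± 0.14, and HXK1 stood at 4.79 without untreated replicate 1 and at 2.29 without untreated replicate 2. Of the pyruvate kinases, PYK2 had 113 and 112 CPM against 31.2 and 20.1 CPM (2.14 ± 0.22), and CDC19, the main form, 2202 and 2155 CPM against 6800 and 5820 CPM (-1.53 ± 0.17). In both pairs the form that growing cells use on glucose was the one that fell.

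Other pairs with stable calls lie in metabolism, transport and the cell surface. The acetyl-CoA synthetases ACS1 and ACS2 had 2.02 ± 0.17 and -0.79 ± 0.10, and the 6-phosphogluconate dehydrogenases GND2 and GND1 had 1.89 ± 0.19 and -0.67 ± 0.12. The Ran proteins GSP2 and GSP1 had 3.35 ± 0.21 and -0.67 ± 0.15, and GSP1 remained the more abundant, at 916 and 722 CPM with rapamycin, against 1379 and 1234 CPM untreated. The ADP/ATP carriers PET9 and AAC3 had 0.51 ± 0.13 and -2.46 ± 0.16. The iron-sulfur scaffolds ISU1 and ISU2 had 1.16 ± 0.10 and -0.995 ± 0.23, and the NAD enzymes NMA2 and NMA1 had 0.36 ± 0.09 and -1.09 ± 0.08. The glycerol-phosphate acyltransferases GPT2 and SCT1 had 0.84 ± 0.09 and -0.98 ± 0.15, and the chitin synthases CHS1 and CHS2 had 1.0002 ± 0.11 and -0.92 ± 0.17. SIR3, of silent chromatin, and ORC1, of the replication origin complex, descend from 1 gene and had 0.41 ± 0.09 and -0.90 ± 0.09.

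**Figure D5:**
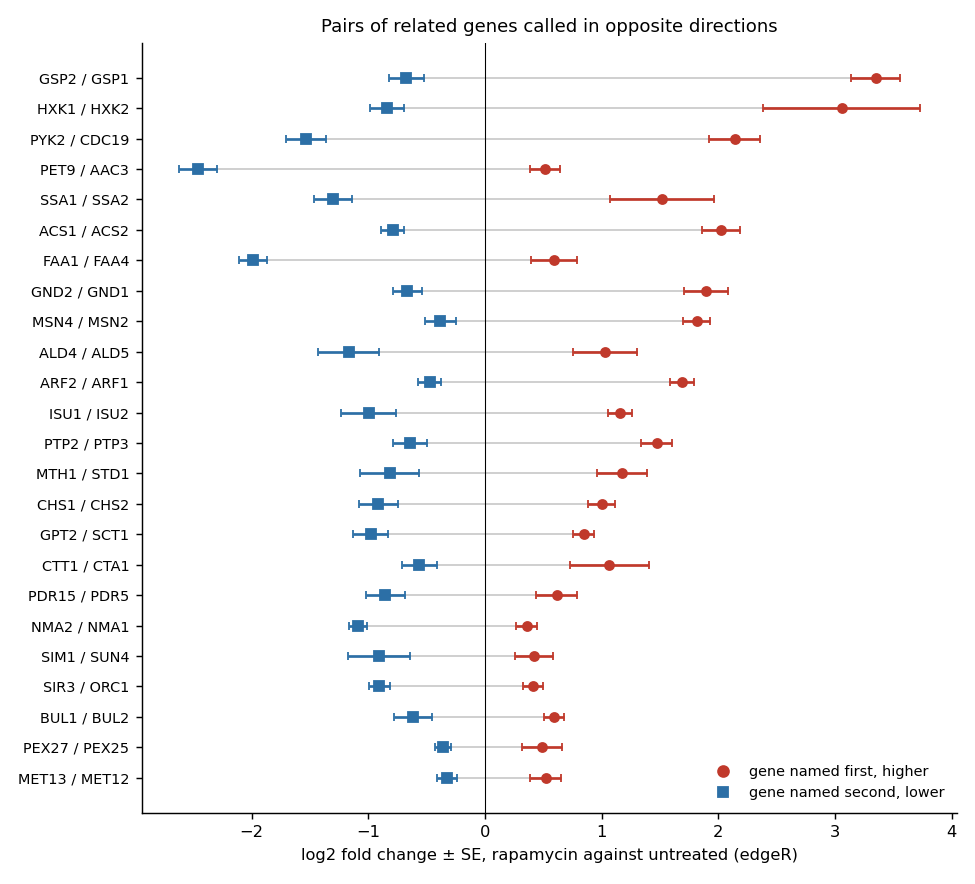
Log2 fold change ± SE, rapamycin over untreated, of 24 of the 25 pairs in which 1 gene rose (red circle) and the other fell (blue square), ordered by the gap between them. GSP2 and GSP1 stand at the top (3.35 and -0.67) and MET13 and MET12 at the bottom (0.52 and -0.33).

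In 14 of the 25 pairs at least 1 gene lost its call under an alternative. Among them MSN4, a stress transcription factor, rose by 1.81 ± 0.12, while its relative MSN2 had -0.38 ± 0.13 and missed the threshold without rapamycin replicate 1 (edgeR adjusted p = 0.157), without rapamycin replicate 2 (0.0606), without untreated replicate 2 (0.179) and with library totals (0.777). SSA1, a cytosolic Hsp70, had 2616 and 2805 CPM with rapamycin, against 1451 and 447 CPM untreated (1.51 ± 0.45), and missed the threshold without rapamycin replicate 2 (edgeR adjusted p = 0.0538); its log2 fold change was 2.60 without untreated replicate 1 and 0.90 without untreated replicate 2. SSA2, its near-identical partner, fell by -1.30 ± 0.16. FAA4, a fatty acyl-CoA synthetase, fell by -1.99 ± 0.12, while FAA1 had 0.59 ± 0.20 and missed the threshold without either rapamycin library (edgeR adjusted p = 0.0978 and 0.0603) and without untreated replicate 2 (0.137). ARF2, a GTPase of vesicle coats, had 1020 and 967 CPM against 323 and 292 CPM and rose by 1.69 ± 0.10, and ARF1 had -0.47 ± 0.10, with an edgeR adjusted p of 0.212 under library totals. MET12, at -0.33 ± 0.08, missed the threshold without rapamycin replicate 2 (edgeR adjusted p = 0.0519). Other genes that lost a call were ALD4, PTP3, STD1, BUL2, PDR15, CTT1, CTA1, PEX25, PEX27, SIM1 and SUN4. Without rapamycin replicate 1 the number of opposite pairs was 16, against 25 with all libraries.

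The same fit sets this response beside that in the deletion of RPH1, a JmjC histone demethylase gene. The interaction, here the deletion's change less the wild type's, was positive for 434 genes (7.04% of those tested) and negative for 375 (6.08%). Of the genes named above, the smallest interaction p-values belonged to AMD2, TMT1, UBC5 and SHC1. AMD2 rose by 4.01 in the deletion, against 5.34 in wild type, and TMT1 by 3.39 against 4.95. UBC5 rose by 1.55 in the deletion, against 2.85 in wild type, and SHC1 by 1.58 against 3.42. All 4 rose in both genotypes and rose less in the deletion. They come from genes chosen for their change in the same wild type libraries. Their shared direction is therefore not independent of the choice. The total of 809 called genes was 96 without deletion rapamycin replicate 1.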

How the data were processed

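Total RNA of wild type and rph1 deletion cells was sequenced; the authors deposited raw read counts per gene (7036 entries a library), and per the submitters' processing notes the series names the build sacCer3 and, among its tools, featureCounts 1.6.3, STAR 2.5.3a and Trimmomatic 0.38. Their roles, the annotation, strand use and the treatment of reads with several matches are not given in the sources used here, so antisense, overlapping and near-identical genes are uncertain. Systematic names of 5956 entries were matched to the R64 gene table. Counts were analysed in R 4.3.3 with edgeR 4.0.16: filterByExpr at a minimum count of 10 kept 6169 genes, TMM gave the scaling, and all 8 libraries entered 1 quasi-likelihood fit with 4 group means. SEs come from the F statistic. The interaction subtracts the wild type response from that of the deletion. DESeq2 1.42.0 and 10 other alternatives were tried, and the scripts were tested on simulated data.

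The members and gene lists were chosen with earlier results of these data known, so counts over a list are descriptions and no list was tested as a set. The rule for named genes took the 12 largest increases and decreases among called protein-coding genes averaging 10 CPM or more whose groups did not overlap, leaving out ribosomal, translation and nitrogen genes and further genes known to change from earlier results of these data; up to 3 called members per list in the direction with more calls and up to 2 in the other, by smallest p; every pair with opposite calls; and RPH1, which had 75.4 and 100 CPM with rapamycin, against 67.8 and 85.1 CPM untreated. The text prints a part of these, and marks genes outside the rule as chosen after their values were seen. The chromatin immunoprecipitation files were left out, and 1 pair with opposite calls is counted but not reported here.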

Additional observations from a re-analysis of the deposited data

Results flagged for a closer look

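The response to rapamycin differed between the rph1 deletion and wild type for 67 of the 247 genes named above (edgeR interaction test, adjusted p under 0.05 over all genes, n = 2 libraries per group). In 66 of the 67 the change was smaller in the deletion. The genes were chosen for their change in wild type, and the difference uses the same wild type libraries, so this shared direction is not independent of the choice.

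GSP2 rose by 1.34 in the deletion and by 3.35 in wild type on the log2 scale, a difference of -2.01 ± 0.28. SHC1, a chitin synthase partner of spores, rose by 1.58 in the deletion and by 3.42 in wild type, a difference of -1.84 ± 0.18. The repair gene MAG1 had 0.28 in the deletion and 1.54 in wild type, a difference of -1.26 ± 0.20. The wall genes PIR1 and EGT2 had -0.11 and -0.07 in the deletion, against -1.57 and -1.45 in wild type, which made differences of 1.46 ± 0.19 and 1.39 ± 0.19. MSN4 was the exception in direction, at 2.44 in the deletion and 1.81 in wild type, a difference of 0.63 ± 0.16.

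Among the other genes that rose in wild type, the difference was -1.64 for SIP4, -1.56 for TMT1, -1.43 for TPO2, -1.42 for GPG1, -1.33 for AMD2, -1.33 for RRT8, -1.31 for UBC5, -1.20 for YPS6, -1.04 for SOM1, -1.01 for ARF2, -0.97 for GPR1, -0.97 for BNA1, -0.96 for ORT1 and -0.93 for SPO21. It was -0.91 for GCV3, -0.86 for RIB5, -0.80 for EMP46, -0.80 for KDX1, -0.73 for OPI3, -0.71 for OAZ1, -0.69 for GON7, -0.69 for UBP11, -0.65 for PHB2, -0.61 for RFA1, -0.59 for MIC10, -0.58 for RBK1 and -0.56 for DIB1. Among those that fell in wild type, the difference was 1.36 for RKI1, 1.29 for ALD6, 1.22 for IMD4, 1.20 for FAA4, 1.13 for LIA1, 1.12 for ELP3, 1.11 for YGL188C-A, 1.09 for PRP43, 1.09 for URA7, 1.04 for TRM82, 1.02 for NCL1 and 0.91 for ELP2. It was 0.91 for HOF1, 0.89 for DTR1, 0.88 for ATF2, 0.86 for PRS1, 0.84 for MIS1, 0.82 for TRM8, 0.77 for HEM12, 0.76 for PUS4, 0.74 for TNA1, 0.74 for NMD5, 0.71 for FOL1 and 0.70 for TIM23. The other values were 0.70 for KAP123, 0.67 for TAF5, 0.66 for SIR2, 0.59 for PSE1, 0.57 for PEX31, 0.56 for SRP68, 0.50 for YSH1, 0.49 for TAH18, 0.48 for RVB2 and 0.45 for PRP19.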

How the results depend on the processing

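Of the 247 genes named above, 18 lost their call under at least 1 of 11 alternatives to the comparison: the DESeq2 test, 3 other scalings, no filter on low counts, only the 4 wild type libraries, the replicate number as a block, and leaving out each wild type library. Scaling by library totals gave 1335 genes lower (2092 with TMM scaling) and 1414 higher by more than 2-fold (919), changed the direction with more calls in 22 of the 60 lists and turned the sign of the median in 18; another alternative changed the direction with more calls in 9 lists. Scaling by library totals moved the median of all genes by 0.335. Among a larger set of 401 genes checked the same way, it reversed OAF1 (0.0050), VPS4 (0.024) and MET12 (0.0074). None of these passed the test there, and OAF1 and VPS4 are not among the genes named above. Leaving out 1 wild type library gave 1860 to 2088 genes higher, 1745 to 2059 lower, 834 to 1012 and 800 to 992 by more than 2-fold, and 16 to 28 opposite pairs.

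Same-numbered libraries share only a number in the labels. The replicate block gave 2344 genes higher, 2287 lower and 32 opposite pairs, and the deviations of same-numbered rapamycin and untreated libraries correlated at 0.36 (0.19 to 0.56 over 6 pairs of groups). The interaction total was 809, 1648 with the replicate block, 1149 with DESeq2, and 96 to 1020 when 1 of the 8 libraries was left out; the interaction of HXK1, not called, was -1.73 to 0.77 when 1 library was left out. With 2 libraries per group and 4 residual degrees of freedom, genes near the threshold and genes with few counts, such as those at chromosome ends, are the least certain.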

Other observations

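Some entries of the count table belong to no list above. Of 72 tested snoRNA entries 7 were higher with rapamycin and 54 lower (median log2 fold change -1.81). These are shares of 9.72% and 75%, against 34.8% and 33.9% of all genes. Strand use and the treatment of overlapping genes are not given, so snoRNA entries within other genes are uncertain. Of 39 tested tRNA entries 22 were higher with rapamycin and 5 lower (median log2 fold change 1.501), shares of 56.4% and 12.8%. Their log2 fold changes ran from -3.23 to 8.13. Entries with few counts can pass the filter through the rapamycin libraries alone, so these tRNA counts are descriptions only. Of 280 entries with open reading frame names that the gene table does not hold, 57 were higher and 75 lower, shares of 20.4% and 26.8% that both lie below those of protein-coding genes (35.7% and 33.9%). HIS3, which BY4741 carries as a partial deletion, had 8201 and 7966 counts with rapamycin, against 1391 and 1975 untreated.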
